A study of Mus musculus with 2 samples.

Results

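The ADAMTS proteases described here are 10 genes, Adamts1, Adamts2, Adamts4, Adamts5, Adamts6, Adamts9, Adamts10, Adamts12, Adamts17 and Adamts20, taken by symbol from the 19059 features of a single-nucleus RNA-seq (snRNA-seq) series. All 10 had a feature. ADAMTS proteins (a disintegrin and metalloproteinase with thrombospondin motifs) are secreted zinc proteases that work in the extracellular matrix. They cut large proteoglycans such as versican and aggrecan, remove the amino-terminal propeptide of procollagen, or act at fibrillin microfibrils. In solid tumors they are made by stromal cells, endothelium and tumor cells alike, and each member has its own set of producing cells. The genes were chosen with earlier results of these data in view, Adamts6 in fibroblasts among them. Their values under treatment are therefore a description, without a test.

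The tumors came from dFLEx CDS mice, a model of CIC::DUX4 sarcoma in which the fusion gene under the CAG promoter is put in frame by Cre and FLPE recombinase together. Plasmids for both recombinases, also driven by CAG and so not tied to a cell type, were electroporated into hind limb muscle. The label of the untreated group gives the genotype dFLEx CDS +/-, and the labels give no age. The groups were 4 untreated tumors and 4 tumors of mice given 0.42 mg/kg Minnelide, a water-soluble prodrug of the transcription inhibitor triptolide, for 21 days. The labels give no further detail of what the untreated mice received. Tumors were numbered by file order, and the labels tie no untreated tumor to a Minnelide tumor.

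Nuclei were grouped into classes by marker genes, and the members themselves had no part in the clustering. Of 59922 retained nuclei, 6641 were fibroblast-like, 32804 tumor-like, 8533 myocyte-like, 3099 endothelial-like, 964 pericyte-like and 2100 macrophage-like. Fibroblast-like nuclei numbered 292 to 1427 per tumor, and all 10 fibroblast markers (Col1a1, Pdgfra and Dcn among them) were detected in each tumor. Tumors held 18487409 to 73211599 UMIs (unique molecular identifiers, each standing for a captured transcript) before filtering. Median UMIs per nucleus ran from 883 in untreated 4 to 4031 in Minnelide 1. A cluster of 4923 nuclei, nearly all from untreated 2 and untreated 3, stayed unnamed because it carried tumor markers but was led by the osteoclast genes Acp5, Mmp9 and Ctsk. Each untreated tumor shared 49 to 132 nucleus barcodes with the Minnelide tumor of the same number and 0 with any other tumor. Tumors of a group also differed in a fixed pair of barcode bases, which tumors of the same number had in common. The paper's methods name on-chip multiplexing of samples. Whether tumors of a group, or those of the same number, were captured together is not given in the labels. Treatment therefore cannot be told apart from a capture shared by a group, and no pairing was used.

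The naming of 2 clusters was in doubt because of their leading genes. Among tumor-like nuclei, cluster 29 (210 nuclei, 66.2% of them from untreated 3) shared Pdzrn4, Lifr, Frmd5, Mmp13, Brinp3 and Kcnip4 with the leading genes of a fibroblast-like cluster and held 52.2% of the tumor-like UMIs of untreated 3. Among myocyte-like nuclei, cluster 22 (772 nuclei, 99.9% from Minnelide 2) was led by Car10, Lsamp and Cdh8, which also led a tumor-like cluster. Cluster 22 held 46.9% of the myocyte-like UMIs of Minnelide 2. Both were left out as an alternative chosen after seeing the data, given beside the values it moved most. Myocyte-like cluster 10 (2237 nuclei, 99.4% from untreated 1, median 991 UMIs) also had raised markers of several other classes and was not left out. At Leiden resolution 0.5, myocyte-like nuclei of untreated 1 numbered 1251 in place of 3473. The myocyte-like values of untreated 1 therefore depend on the naming of these nuclei.

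Levels are in CPM, the UMIs of a gene per 1000000 UMIs of that class in that tumor. They compare a gene between classes or tumors, not one gene with another, since long genes and long introns can give more UMIs in nuclei. A lower CPM in a class cannot be told apart from fewer expressing nuclei in it.

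A zinc-binding motif in the catalytic domain is common to all 10 members, so its coding sequence is shown for each. The 36 bases were read from the GRCm39 genome with GENCODE M39 exons, the build named for these files. Capitals mark the codons of the 3 histidines that hold the zinc.
Adamts1: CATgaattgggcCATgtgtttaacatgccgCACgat
Adamts4: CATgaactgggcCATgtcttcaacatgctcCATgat
Adamts5: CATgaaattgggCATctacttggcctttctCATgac
Adamts9: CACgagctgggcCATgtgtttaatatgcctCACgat
Adamts20: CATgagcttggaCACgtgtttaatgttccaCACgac
Adamts2: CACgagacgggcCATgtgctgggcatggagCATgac
Adamts6: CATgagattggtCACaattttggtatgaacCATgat
Adamts10: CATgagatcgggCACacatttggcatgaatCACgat
Adamts17: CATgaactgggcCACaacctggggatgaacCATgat
Adamts12: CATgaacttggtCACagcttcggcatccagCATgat
In all 10 genes an intron splits this stretch. Adamts6 shared 29 of the 36 bases with Adamts10 and 28 with Adamts17, against 21 to 27 with the other members. Adamts1 shared 31 with Adamts9 and 30 with Adamts4.

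The members differed in the class where their mean was highest, as the heat map of class means shows. Adamts6 led in fibroblast-like nuclei, Adamts9, Adamts1 and Adamts4 in endothelial-like nuclei, Adamts2 and Adamts17 in pericyte-like nuclei, and Adamts20 in myocyte-like nuclei. Adamts12 was shared by pericyte-like and fibroblast-like nuclei, Adamts5 by fibroblast-like and endothelial-like nuclei, and Adamts10 was spread over most classes. These orders are descriptions of 8 tumors (7 for pericyte-like nuclei, since Minnelide 4 had 14 of them), with no test.

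**Figure D1:**
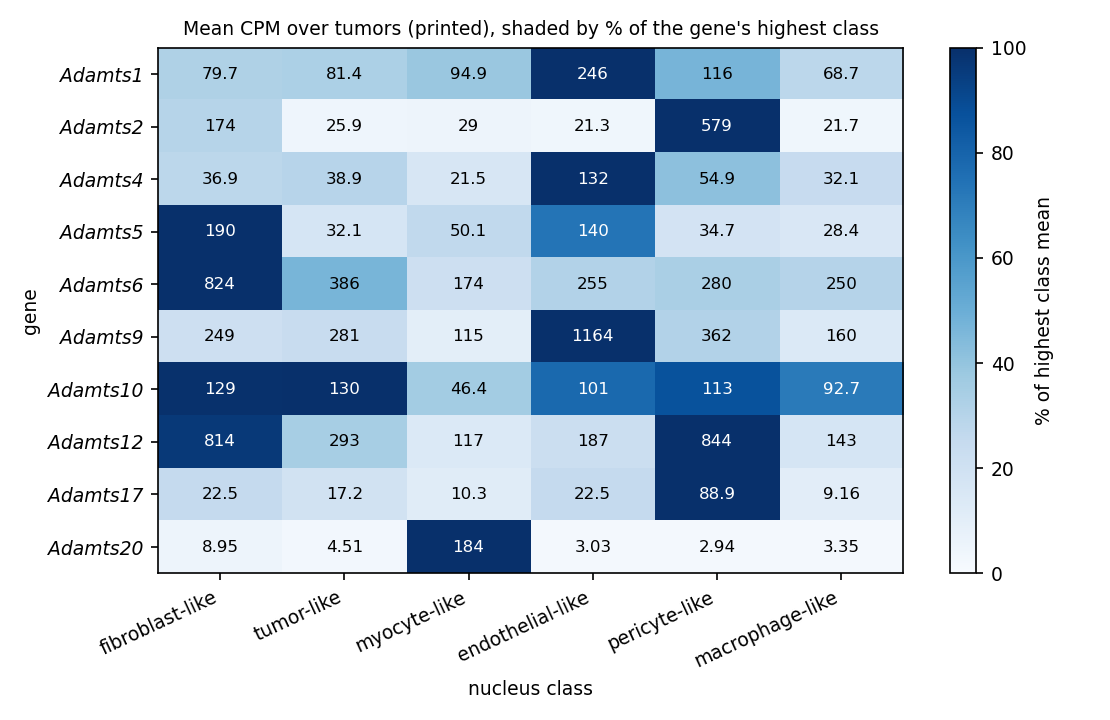
Mean CPM of each ADAMTS gene (rows) in 6 classes of nuclei (columns), over 8 tumors or 7 for pericyte-like nuclei. The printed number is the mean, and the shade is its percent of the gene's highest class. Adamts20 stands at 184 in myocyte-like nuclei and under 9 in every other class, whereas Adamts10 runs from 46.4 to 130 without a single leading class.

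The members known to cut versican and aggrecan are Adamts1, Adamts4, Adamts5, Adamts9 and Adamts20. Adamts9 (ENSMUSG00000030022, chr6:92749680-92920520, minus strand, 40 exons) was highest in endothelial-like nuclei in 8 of 8 tumors, with 1164 ± 431 CPM (SD, n = 8). Its pericyte-like level followed at 362 ± 229.9 CPM (SD, n = 7), and its fibroblast-like level was 249 ± 72 CPM (SD, n = 8). Endothelial-like and pericyte-like ranges did overlap, 728 to 2057 against 198 to 870 CPM, with the top of both in Minnelide 2.

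Adamts1 and Adamts5 are neighbors on chromosome 16 (chr16:85590579-85600009 and chr16:85653061-85698716, both on the minus strand), yet led in different classes. Adamts1 was 246 ± 101 CPM (SD, n = 8) in endothelial-like nuclei and 79.7 ± 28.2 in fibroblast-like nuclei. Adamts5, a main aggrecanase of cartilage, was 190.4 ± 87.9 CPM (SD, n = 8) in fibroblast-like nuclei and 140.0 ± 107 in endothelial-like nuclei, with the fibroblast-like value the higher in 7 of 8 tumors. Untreated 1 was the exception and had the top Adamts5 level of both classes, 385 CPM in fibroblast-like and 391 CPM in endothelial-like nuclei.

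Adamts4 (ENSMUSG00000006403, chr1:171077986-171089841, plus strand), the other main aggrecanase, was 132 ± 42.4 CPM (SD, n = 8) in endothelial-like nuclei and 36.9 ± 10.2 in fibroblast-like nuclei. Untreated 1 had the lowest Adamts4 level of all tumors in tumor-like (9.63 CPM), macrophage-like (10.0 CPM), fibroblast-like (13.6 CPM) and endothelial-like nuclei (52.1 CPM). Adamts20 (ENSMUSG00000022449, chr15:94166170-94363299, minus strand), the closest relative of Adamts9, was 184 ± 117 CPM (SD, n = 8) in myocyte-like nuclei, and 55.4 CPM in its lowest tumor was above 21.4 CPM, the highest value in any tumor of the other classes named here. Without cluster 22, Minnelide 2 had 79.7 CPM of Adamts20 in place of 55.4. Untreated 1, the main tumor of cluster 10, had 56.1 CPM, against 252 to 375.5 CPM in the other untreated tumors.

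Adamts2 (ENSMUSG00000036545, chr11:50492787-50698400, plus strand) encodes the main procollagen N-proteinase, which trims fibrillar collagens before they assemble. It was 579 ± 154 CPM (SD, n = 7) in pericyte-like nuclei and 174 ± 41.7 CPM (SD, n = 8) in fibroblast-like nuclei. The pericyte-like level was the higher in 7 of 7 tumors, and the ranges, 398 to 763 and 126 to 244 CPM, did not overlap. Myocyte-like, tumor-like, macrophage-like and endothelial-like nuclei had 21.3 to 29 CPM on average and did not differ beyond their spread. Adamts2 was also among the 10 leading genes of the pericyte-like cluster, although it had no part in the clustering.

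Adamts12 (ENSMUSG00000047497, chr15:11064876-11349318, plus strand), known to cut the cartilage protein COMP, had 844 ± 475 CPM (SD, n = 7) in pericyte-like and 813.5 ± 162 CPM (SD, n = 8) in fibroblast-like nuclei. Untreated 1 made the pericyte-like mean, at 1868 CPM against 437 to 905 in the other tumors. The fibroblast-like level was the higher in 5 of the 7 tumors with both classes. Tumor-like nuclei had 293 ± 116 CPM (SD, n = 8), below the fibroblast-like value in 8 of 8 tumors.

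Adamts6, Adamts10 and Adamts17 are tied to fibrillin microfibrils, and mutations of ADAMTS10 and ADAMTS17 cause short stature with lens dislocation in humans. Adamts10 (ENSMUSG00000024299, chr17:33742987-33772758, plus strand) had 130 ± 11.8 CPM (SD, n = 8) in tumor-like and 129 ± 16.4 in fibroblast-like nuclei, which did not differ beyond their spread. Its myocyte-like level was 46.4 ± 17.7 CPM (SD, n = 8), with 76.0 CPM in Minnelide 2, or 44.3 CPM without cluster 22. Adamts17 (ENSMUSG00000058145, chr7:66489439-66802919, plus strand) had 88.9 ± 77.4 CPM (SD, n = 7) in pericyte-like nuclei, from 13.6 in untreated 1 to 256 in untreated 4, and 9.16 to 22.5 CPM on average elsewhere.

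Adamts6 (ENSMUSG00000046169, chr13:104424343-104633203, plus strand, 25 exons) is the closest relative of Adamts10, and its zinc-binding stretch joins exons 9 and 10 (chr13:104489355-104503320). Its fibroblast-like level was the highest of the 6 classes in 8 of 8 tumors, at 824 ± 331 CPM (SD, n = 8). Tumor-like nuclei followed with 386 ± 137.5 CPM, pericyte-like nuclei with 279.5 ± 61.5, endothelial-like nuclei with 255 ± 58.6 and macrophage-like nuclei with 249.9 ± 115. The tumor-like level was above the macrophage-like level in 8 of 8 tumors, whereas the pericyte-like, endothelial-like and macrophage-like levels did not differ beyond their spread. Myocyte-like nuclei had the lowest mean of Adamts6, 174 ± 77.6 CPM, with 314 CPM in Minnelide 2, or 221 CPM without cluster 22. Because tumor-like nuclei were so many, they held 61.4% of all Adamts6 UMIs and fibroblast-like nuclei 20.3%.

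Adamts6 in fibroblast-like nuclei was 517, 493, 476 and 607.5 CPM in untreated 1 to 4. It was 974, 1183, 1143 and 1200 CPM in Minnelide 1 to 4. All 4 Minnelide tumors lay above all 4 untreated tumors, and the group means were 1125 ± 104 against 524 ± 58.4 CPM (SD, n = 4 each), a log2 fold change of 1.15 ± 0.16 (SE). Across all genes tested in these nuclei, 1.39% were higher in every Minnelide tumor and 2.63% lower, and Adamts6 was chosen for this difference, so nothing is read from it. A fibroblast-like cluster of 1044 nuclei was 95.5% untreated 1, and without that tumor the log2 fold change of Adamts6 was 1.11. The counts behind the values ran from 1162 to 4924 UMIs per tumor.

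**Figure D2:**
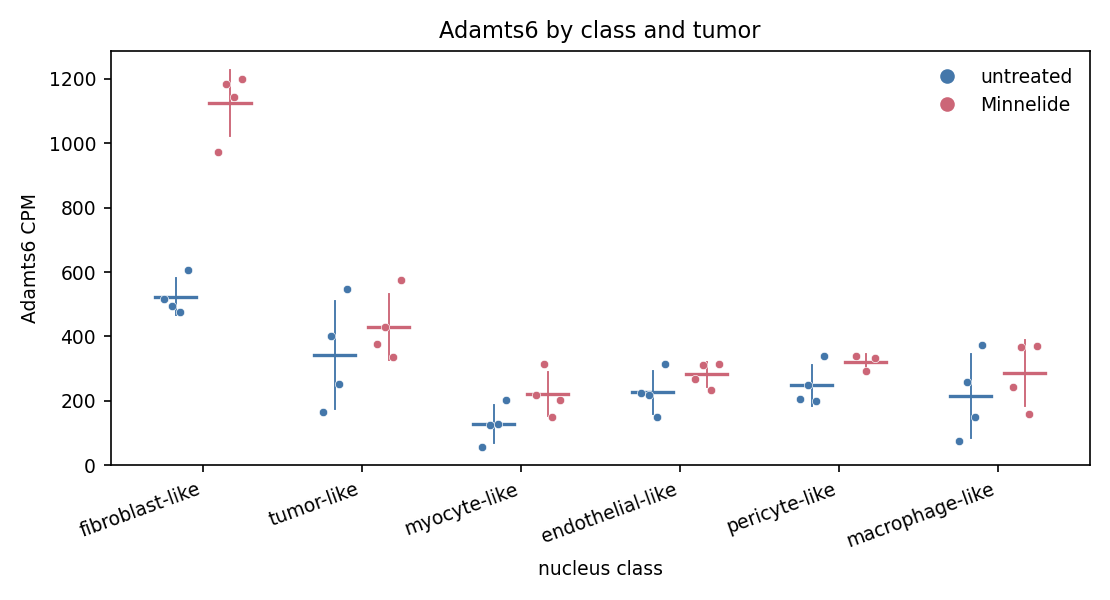
Adamts6 CPM (vertical axis, linear) in 6 classes of nuclei, with a point per tumor, a bar for the group mean and a line for ± 1 SD. The 4 Minnelide tumors lie between 974 and 1200 in fibroblast-like nuclei, above the untreated tumors at 476 to 607.5, and the groups overlap in the other classes.

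The share of fibroblast-like nuclei with an Adamts6 UMI differed in the same way. With every nucleus thinned to 1000 UMIs it was 32.3 ± 4.1% in untreated and 51.7 ± 3.37% in Minnelide tumors (SD, n = 4 each). Without thinning, the shares were 57.4 ± 3.75% and 77.2 ± 4.54%, and median UMIs were 2039 to 3982 and 2356 to 4233 per nucleus. Thinning left out 222 untreated and 42 Minnelide nuclei that were too shallow. Macrophage-like nuclei, taken as the class for background from transcripts of other cells, had a UMI in 17.9 ± 9.97% of untreated and 25.2 ± 8.86% of Minnelide nuclei at 1000 UMIs, with median UMIs of 1306 to 2226 and 1666 to 3428. Their Adamts6 level was 75.1 to 375 CPM in untreated and 160.3 to 371 CPM in Minnelide tumors. The fibroblast-like level exceeded the macrophage-like level of the same tumor by 232 to 442 CPM in the untreated and by 730.5 to 983 CPM in the Minnelide group.

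Tumor marker transcripts in fibroblast-like nuclei were also higher in every Minnelide tumor than in any untreated tumor. In fibroblast-like nuclei the 9 tumor-like markers, which include Etv1, Etv4 and Etv5, summed to 2384 to 6056 CPM in untreated and 6927 to 11900 CPM in Minnelide tumors, and all 9 were detected in each tumor. This was 17.7 to 36% of their sum in tumor-like nuclei of the same tumor in the untreated group and 37.2 to 52.6% in the Minnelide group. In macrophage-like nuclei the share was higher, 31.7 to 67.4% in untreated and 57.7 to 78.2% in Minnelide tumors, and the sums overlapped, 4262 to 12850 against 10370 to 17680 CPM. The part of these transcripts in the Adamts6 difference was not tested. Adamts6 itself was lower in tumor-like than in fibroblast-like nuclei in every tumor, with 165 to 548 CPM untreated and 338 to 574 CPM under Minnelide. The fibroblast-like level was 1.11 to 3.13 times the tumor-like level in untreated and 2.09 to 3.385 times in Minnelide tumors. Within the Minnelide group the 2 orders were opposite. Minnelide 1 had the most tumor marker transcripts and the lowest Adamts6 level, and Minnelide 4 had the fewest and the highest. Among untreated tumors, untreated 4 had the most of both. Untreated 1 had the fewest marker transcripts but more Adamts6 than untreated 2 and untreated 3.

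**Figure D3:**
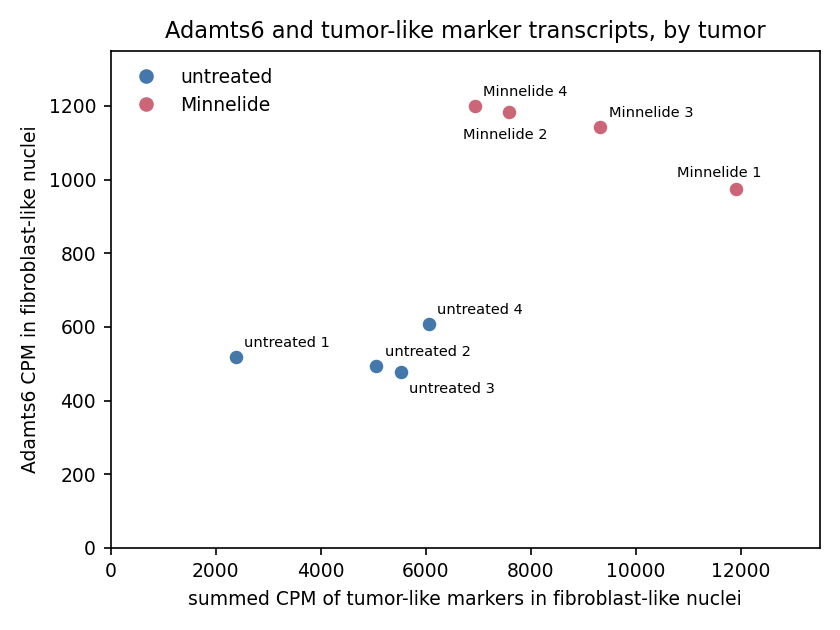
Adamts6 CPM in fibroblast-like nuclei (vertical axis) against the summed CPM of 9 tumor-like markers in the same nuclei (horizontal axis), with a point per tumor. The groups are apart on both axes, 476 to 607.5 against 974 to 1200 for Adamts6 and 2384 to 6056 against 6927 to 11900 for the markers.

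Other marker lists in fibroblast-like nuclei overlapped between the groups. Fibroblast markers summed to 6333 to 17850 CPM in untreated and 6299 to 14180 CPM in Minnelide tumors, and myocyte markers (11 of 11 detected in each tumor) to 1962 to 9264 and 316 to 6982 CPM. The 5 chondrocyte markers, Col2a1 and Acan among them, summed to 84 to 527 and 458 to 744 CPM, with 4 or 5 detected. The 10 macrophage markers summed to 165 to 381 and 120 to 242 CPM, and the 6 neutrophil markers to less than 3 CPM in every tumor.

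Fibroblast-like nuclei fell into 14 sub-clusters, and Adamts6 varied among them. It was lowest in sub-cluster 13 (Pcdh15, Cxcl13), at 94.8 CPM in untreated 1, and highest in sub-cluster 8 (Tafa2, Nos2, Slc2a1), where it reached 1647 CPM in Minnelide 2. Sub-cluster 9, led by C7, Dpp4 and Aldh1a1 and made up of untreated 1 to 97.5%, had 307 CPM. Its interstitial fibroblast markers were raised, 8 of 9 of them.

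In sub-clusters with at least 2 tumors of each group (30 or more nuclei per tumor), the Adamts6 level was compared within the sub-cluster. Sub-cluster 4 (Pdzrn4, Spp1, Mmp13) had 255, 320.5 and 450 CPM in untreated 2 to 4, and 715 and 883 CPM in Minnelide 2 and 4. Sub-cluster 1 (Ctnna2, Lgr5) had 517.5, 510.4 and 641 CPM in untreated 2 to 4, and 1061 and 1233 CPM in Minnelide 2 and 4. In both, the Minnelide tumors lay above the untreated tumors. The 10 leading genes of sub-cluster 1 held the satellite cell marker Pax7. They also held Camk1d and Il31ra, which led a tumor-like cluster that was 97.1% untreated 4. The sub-clusters divide the same nuclei and tumors in which Adamts6 was chosen, so nothing is read from separation within them.

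Sub-cluster 2 (Col8a1, Thbs1) had 786, 1016 and 661 CPM in untreated 2 to 4, and 1335 and 1177 CPM in Minnelide 1 and 3. Sub-cluster 8 had 784, 1146 and 634 CPM in untreated 2 to 4, and 1647 and 1398 CPM in Minnelide 2 and 4, again without overlap. Sub-cluster 3 (Car10, Lsamp), 85.2% of it from Minnelide 2, did overlap, with 690.5 and 1080 CPM in untreated 3 and 4, and 899.7 and 1175 CPM in Minnelide 1 and 2. Sub-cluster 1 was 1 of 7 sub-clusters whose leading genes included a marker of another class. Without their 2602 nuclei, 2204 from untreated and 398 from Minnelide tumors, Adamts6 was 314 to 600.3 CPM untreated and 1010 to 1228 CPM under Minnelide. The nuclei left still included sub-cluster 3 and sub-cluster 6, 74.3% of it from Minnelide 1. Car10, Lsamp, Agbl4, Zfp804b and Kctd16, leading genes of sub-cluster 3, also led a tumor-like cluster that was 98.8% Minnelide 2. Cdh4 and Slc35f1, leading genes of sub-cluster 6, also led a tumor-like cluster that was 98.4% Minnelide 1.

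**Figure D4:**
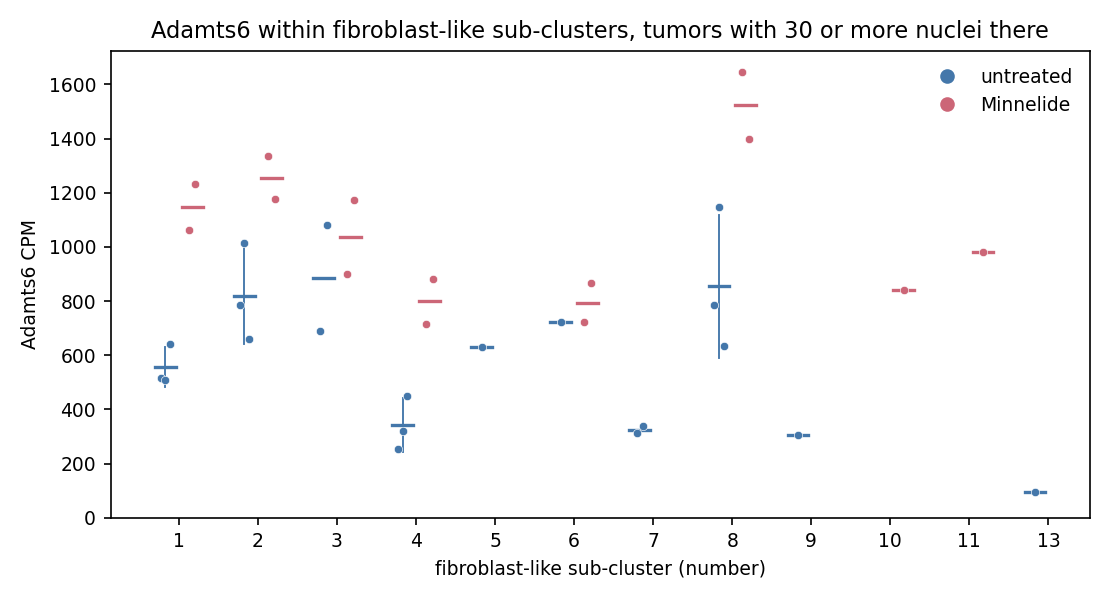
Adamts6 CPM (vertical axis) in sub-clusters of fibroblast-like nuclei (horizontal axis, by number), with a point per tumor that had 30 or more nuclei there, a bar for the group mean and a line for ± 1 SD where a group had 3 tumors. Minnelide tumors lie above untreated tumors in sub-clusters 1, 2, 4 and 8 and overlap with them in 3, and in 6 the single untreated tumor lies between both Minnelide tumors.

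The other 9 members overlapped between the groups in fibroblast-like nuclei. Adamts5 was 385, 217, 199 and 127 CPM in untreated 1 to 4 and 103.6, 141, 155.5 and 194 CPM in Minnelide 1 to 4, a log2 fold change of -0.58 ± 0.30 (SE). Untreated 1 was far above the rest, and without it the log2 fold change was -0.29. Within the nuclei, Adamts5 was concentrated in sub-cluster 9 (907 CPM, untreated 1) and sub-cluster 3 (164 to 898 CPM), against 34.2 to 264 CPM in the others.

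Adamts12 was 864, 874, 724 and 770.0 CPM in untreated 1 to 4 and 841, 719, 1135 and 581 CPM in Minnelide 1 to 4, with Minnelide tumors at both ends of the range. Its log2 fold change was 0.08 ± 0.21 (SE). Adamts9 was 142.5, 264, 242 and 345 CPM in untreated 1 to 4 and 195, 353, 207 and 243 CPM in Minnelide 1 to 4, with a log2 fold change of 0.04 ± 0.31 (SE). These were the members with the smallest fold changes in the class.

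Adamts2 was 214, 189.8, 187 and 151 CPM in untreated 1 to 4 and 139, 126, 244 and 139.4 CPM in Minnelide 1 to 4. Its log2 fold change was -0.14 ± 0.22 (SE), with 3 Minnelide tumors below all untreated tumors and Minnelide 3 above them. Adamts10, the relative of Adamts6, was 148, 115, 117 and 107 CPM in untreated 1 to 4 and 144, 117.4, 141 and 142.5 CPM in Minnelide 1 to 4, with a log2 fold change of 0.21 ± 0.12 (SE). Only untreated 1 among the untreated tumors was at the level of the upper 3 Minnelide tumors.

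The remaining members were Adamts1, Adamts4, Adamts17 and Adamts20. Adamts1 ran from 43.9 to 129.8 CPM in untreated and 59.6 to 100.2 CPM in Minnelide tumors. Adamts4 ran from 13.6 to 42.9 and from 33.4 to 46.5 CPM, Adamts17 from 14.5 to 28.3 and from 17.4 to 36.9 CPM, and Adamts20 from 5.88 to 21.4 and from 4.35 to 11.4 CPM. Their log2 fold changes were 0.26 ± 0.30, 0.20 ± 0.36, 0.19 ± 0.31 and -0.36 ± 0.51 (SE). None of these exceeded its spread between tumors, and those of Adamts4, Adamts17 and Adamts20 changed sign under some alternatives.

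**Figure D5:**
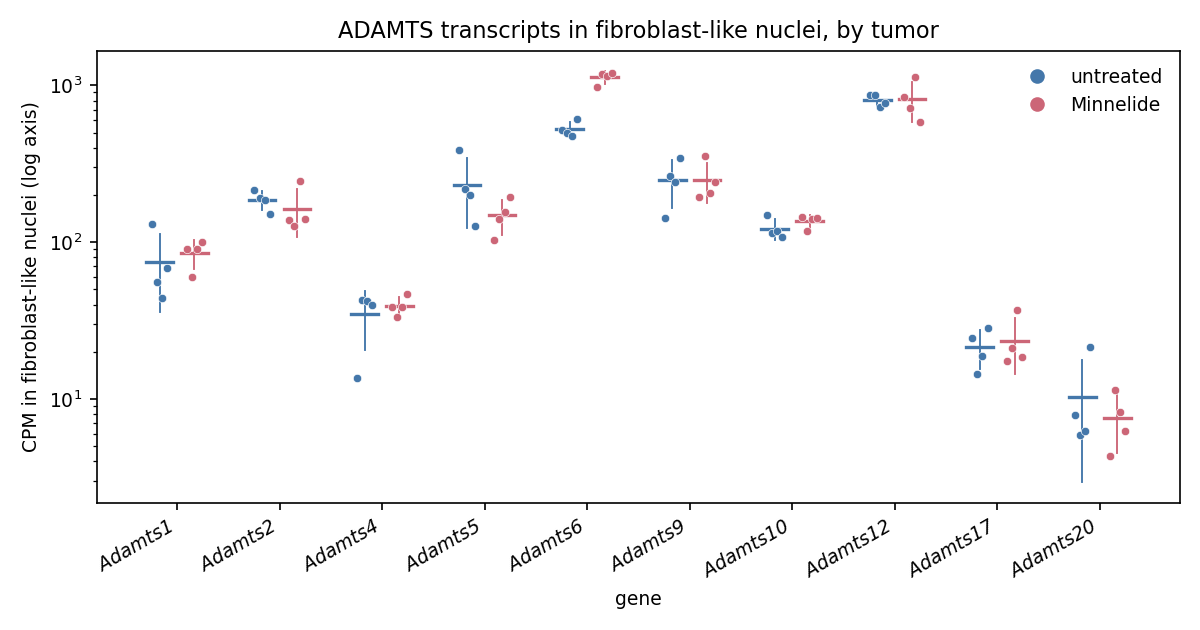
CPM of the 10 ADAMTS genes in fibroblast-like nuclei (vertical axis, log scale), with a point per tumor, a bar for the group mean and a line for ± 1 SD. Adamts6 has no overlap between the groups, 476 to 607.5 untreated and 974 to 1200 under Minnelide, whereas the groups overlap for the other 9 genes.

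Of the 10 members, 7 had a positive log2 fold change in fibroblast-like nuclei, with a median of 0.13 against 0.01 over all genes, of which 51% were positive. In the edgeR quasi-likelihood test with Benjamini-Hochberg adjustment, 0 of 11353 genes passed an adjusted p of 0.05 in these nuclei (0.0%), and 5.36% had an unadjusted p under 0.05. Among the members, edgeR called 0 of 10, and 1 had an unadjusted p under 0.05. DESeq2 called 17 genes (0.15%), 1 of them a member. Since the members were chosen on this contrast, nothing is read from these counts.

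Among tumor-like nuclei, 0 of 12960 genes (0.0%) were called by edgeR, and 13.3% had an unadjusted p under 0.05. The latter held 2 members, and DESeq2 called 406 genes (3.13%) with 0 members among them. Adamts10 was 110.5, 125.5, 125 and 123 CPM in untreated 1 to 4 and 145.7, 145, 136 and 127 CPM in Minnelide 1 to 4, with a log2 fold change of 0.31 ± 0.13 (SE). The groups did not overlap, though the highest untreated and the lowest Minnelide tumor lay close together. Of all genes tested in these nuclei, 1.29% were likewise higher in every Minnelide tumor, and 7.91% lower. Without cluster 29, untreated 3 had 132 CPM of Adamts10 and Minnelide 4 had 127, so the groups overlapped. At Leiden resolution 2.0 the log2 fold change of Adamts10 was 0.21. Adamts2 was 34.7, 29.4, 47 and 20.9 CPM in untreated 1 to 4 and 19.4, 15.9, 23.6 and 16.8 CPM in Minnelide 1 to 4, a log2 fold change of -0.68 ± 0.27 (SE). Only untreated 4 lay within the Minnelide range. Without cluster 29, untreated 3 had 26.5 CPM of Adamts2 and untreated 2 had 22.6, also within that range, and the log2 fold change was -0.33. It was -0.41 without untreated 3, -0.39 with no doublet removal, -0.44 with the unnamed cluster counted in and -0.18 at Leiden resolution 2.0.

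Adamts6 in tumor-like nuclei was 165, 400.5, 254 and 548 CPM in untreated 1 to 4 and 378, 430.3, 338 and 574 CPM in Minnelide 1 to 4. The groups overlapped, with a log2 fold change of 0.44 ± 0.39 (SE). The untreated tumors spread over a wider range than they did in fibroblast-like nuclei. Whether the fold change differed between the classes was not tested. In tumor-like nuclei 5 of 10 members had a positive log2 fold change, against 49.4% of all genes, and the median of the members was 0.02.

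In the other classes edgeR and DESeq2 called 0 members, and for 0 members were the groups without overlap. Over all genes, the shares higher and lower in every Minnelide tumor were 3.18% and 1.4% in myocyte-like, 2.47% and 3.4% in endothelial-like, 2.21% and 2.48% in pericyte-like, and 1.08% and 1.1% in macrophage-like nuclei. Of the members tested, 6 of 10 were higher in myocyte-like, 8 of 9 in endothelial-like, 2 of 9 in pericyte-like and 4 of 8 in macrophage-like nuclei. The shares over all genes were 45.8%, 48.9%, 47% and 47% in the same order. The endothelial-like count was 6 of 9 under some alternatives, such as without untreated 4. Unadjusted p values under 0.05 were met by 0 members in the first 3 of these classes and by 1 in macrophage-like nuclei, against 6.24%, 9.32%, 3.07% and 3.61% of all genes. Over all genes, edgeR called 0.0% in each of these classes, and DESeq2 called 0.0% in myocyte-like, 0.206% in endothelial-like, 0.0% in pericyte-like and 0.0% in macrophage-like nuclei. Adamts9, the leading endothelial member, was 1108, 834, 943 and 1523 CPM in endothelial-like nuclei of untreated 1 to 4 and 728, 2057, 1013 and 1110.0 CPM in Minnelide 1 to 4, with Minnelide tumors at both ends.

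The genes whose pattern was most like that of Adamts6 were taken over 47 sums of class and tumor, among 7598 genes. They were Pcsk5 (Pearson r of log2 values 0.82), a proprotein convertase, Ddah1 (0.82), which breaks down methylarginines, Bicc1 (0.81), an RNA-binding protein, Bmper (0.81), a secreted binder of BMPs, and Prtg (0.80), a membrane protein of the immunoglobulin superfamily. The sums share tumors and libraries, so these values are descriptions. Among the members, Adamts10 had r = 0.63 and Adamts12 0.51, and Adamts1 had -0.26.

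The rest of the pathway was followed in lists of relatives, regulators and substrates, which were also chosen with earlier results of these data known. In fibroblast-like nuclei edgeR called 0 of 42 list genes, DESeq2 also called 0, and 2 reached 0.05 before adjustment in edgeR. Of the other ADAMTS genes, 2 of 7 were higher, and of the ADAMTS-like genes, which lack the protease domain, 3 of 5. Of inhibitors, clearance and activation factors (TIMPs, Lrp1, furin and its kin) 5 of 8 were higher, and of substrates and partners 14 of 22. The lists share Col1a1, Col1a2, Col3a1 and Dcn with the fibroblast markers, and Acan and Col2a1 with the chondrocyte markers.

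The higher list gene with the smallest p in fibroblast-like nuclei was Fbn2, a fibrillin, at 99.4, 87.5, 69.3 and 92 CPM in untreated 1 to 4 and 95.5, 102, 164 and 226 CPM in Minnelide 1 to 4. Its log2 fold change was 0.80 ± 0.27 (SE), the edgeR adjusted p was 0.854, and the groups overlapped. The lower one was Lrp1, the endocytic receptor that clears ADAMTS proteases, at 648, 647, 555 and 469 CPM and 354, 435, 489.6 and 497 CPM in the same order, a log2 fold change of -0.33 ± 0.16 (SE) with an adjusted p of 0.854.

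Vcan, the versican gene and the other list gene with an unadjusted p under 0.05, was named after its values were seen. It was 617, 1442, 1621 and 1501 CPM in untreated 1 to 4 and 2312, 2195, 2993 and 2147 CPM in Minnelide 1 to 4. Its log2 fold change was 0.93 ± 0.33 (SE), and edgeR gave it an adjusted p of 0.854. In tumor-like nuclei Vcan was 489 to 3757 CPM untreated and 3270 to 5686 CPM under Minnelide, higher than in fibroblast-like nuclei in 7 of 8 tumors and lower in untreated 1. The part of tumor marker transcripts in its fibroblast-like level was not tested.

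Of 46 list genes tested in tumor-like nuclei, edgeR called 0, 2 had an unadjusted p under 0.05 (Reln and Vwf), and DESeq2 called 0, giving Reln no adjusted p. The higher gene with the smallest p was Fbn1, the main fibrillin of the microfibril, which differed by 0.45 ± 0.22 (SE) on the log2 scale (edgeR adjusted p 0.421). The lower one was Reln, the gene of reelin, which several ADAMTS proteases cut. It was 931, 50.7, 17.1 and 11 CPM in untreated 1 to 4 and 3.41 to 5.96 CPM in the Minnelide tumors, and its log2 fold change was -5.40 ± 1.46 (SE) with an adjusted p of 0.294. Without untreated 1 the log2 fold change was -2.33, and the edgeR adjusted p 0.241.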

How the data were processed

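The authors deposited raw UMI counts per gene and nucleus for 8 tumors, as 4 matrices in each of 2 GEO samples. The submitters' processing notes name bcl2fastq 2.20, Cell Ranger 7.0.1 and mm39, whereas the deposited file headers give Cell Ranger 9.0.1. From these counts, nuclei with at least 200 detected genes were kept unless a mixture model of mitochondrial share on detected genes put them in its high component (posterior over 0.75), those with the highest scrublet scores were removed as doublets (0.8% per 1000 nuclei), and nuclei were clustered with scanpy 1.11.5 (2000 variable genes without members, pathway genes or markers, 30 components, Leiden 1.0). A class needed 3 raised markers. UMIs were summed per tumor and class, with at least 30 nuclei. Sums were tested with edgeR 4.0.16 (TMM, filterByExpr, quasi-likelihood, Benjamini-Hochberg), and DESeq2 1.42.0 was an alternative. The test was tried on simulated data with known changes and the same fixed spread for every gene. That trial does not show the power of the test on these tumors.

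Classes were rebuilt here, so they can differ from the study's. CPM errors are SDs over tumors, and the labels do not say whether each matrix is a separate animal. Counts ran from 204 UMIs of Adamts20 to 20703 of Adamts12 over all fibroblast-like nuclei. Members and lists were chosen with earlier results of these data known. The text names all members, list genes with an adjusted p under 0.05, otherwise the higher and lower list gene with the smallest p in fibroblast-like and tumor-like nuclei, and the 5 genes most like Adamts6 (mean of at least 20 CPM). Words on response in file names, absent from the labels, were not used.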

Additional observations from a re-analysis of the deposited data

Results flagged for a closer look

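In 110 groups of 4 tumors (a member, a class and a treatment), 8 had a tumor apart from the other 3 by Dixon's test at the 95% level, and chance flags about 1 group in 20. In fibroblast-like nuclei these were Adamts2 in Minnelide 3, at 244 CPM against 126 to 139.4 in the other 3, Adamts4 in untreated 1, at 13.6 against 39.8 to 42.9, Adamts10 in Minnelide 2, at 117.4 against 141 to 144, and Adamts20 in untreated 4, at 21.4 against 5.88 to 7.94. In pericyte-like nuclei Adamts12 in untreated 1 was 1868 CPM against 605 to 693, and Adamts4 in untreated 4 was 78.4 against 51.4 to 54.9. Adamts10 in tumor-like nuclei of untreated 1 was 110.5 CPM against 123 to 125.5. Adamts20 in macrophage-like nuclei of Minnelide 2 was 21.4 CPM against 0 to 1.93. That value lies near the floor, with 13 Adamts20 UMIs over the macrophage-like nuclei of all tumors.

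Untreated 1 was the tumor in 3 of these 8 groups, and Adamts6 was in none of them.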

How the results depend on the processing

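With edgeR the number of genes called was 0 in all 6 classes in the analysis as reported. DESeq2 called 17 in fibroblast-like, 406 in tumor-like and 20 in endothelial-like nuclei. Leiden resolution 0.5, which left 7 tumors for endothelial-like nuclei, called 1 gene there, and leaving out each tumor in turn called 0 to 1. An alternative chosen after seeing the data left out fibroblast-like sub-clusters whose leading genes included a marker of another class. It called 1 gene of 10586, which was no member. Adding the unnamed cluster to the tumor-like nuclei, also chosen after seeing the data, called 0, as did leaving cluster 29 out of the tumor-like and cluster 22 out of the myocyte-like nuclei. Stricter naming left too few nuclei or tumors for 5 of the classes and was run for myocyte-like nuclei. The other alternatives called 0 genes.

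The log2 fold change of Adamts6 in fibroblast-like nuclei ran from 1.06 to 1.29 over 15 alternatives, and its groups did not overlap under 5 other choices of nuclei. Of 56 member fold changes, 29 kept their direction under every alternative. Among the 10 in fibroblast-like nuclei, Adamts4, Adamts9, Adamts12, Adamts17 and Adamts20 changed sign under at least 1. Adamts17 fell to -0.41 without the sub-clusters whose leading genes included a marker of another class. No paired analysis was possible because the labels give no numbers that tie an untreated to a Minnelide tumor.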
